A study of Mus musculus with 6 samples.

Results

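Cytokine receptor genes were examined in LSK cells, the lineage-negative Sca-1+ c-Kit+ fraction of mouse bone marrow that contains haematopoietic stem and multipotent progenitor cells. The set was a list of 10 gene symbols, Csf1r, Csf2ra, Csf2rb, Csf2rb2, Csf3r, Il3ra, Il6ra, Il6st, Il7r and Ifngr1, and all 10 were found among the 24063 gene symbols of the count tables and passed the filter on low counts. RNA sequencing was available for 3 Asxl2-/- and 3 wild-type control libraries, all from C57BL/6 bone marrow taken after injection of pIpC, a double-stranded RNA that induces interferon. Mice of both groups carried Mx1-cre, whose interferon-responsive promoter drives the Cre recombinase in haematopoietic cells and in other interferon-responsive tissues. In the Asxl2-/- mice the recombinase removes exon 11 of Asxl2, which encodes a chromatin regulator of the Polycomb group, and the controls went through the same induction without this deletion. The labels give no age.

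Receptors of this group take up the signals that decide whether a blood progenitor survives, divides or enters a lineage. Most have no enzymatic activity and work through JAK kinases bound to their tails, which phosphorylate STAT transcription factors after ligand binding, whereas Csf1r is itself a tyrosine kinase. SOCS proteins and CISH, themselves STAT targets, and the ubiquitin ligase CBL end the signal. Several receptors are assembled from a ligand-specific chain and a shared signalling chain. The receptors for GM-CSF and IL-3 pair Csf2ra or Il3ra with the beta chain Csf2rb, the mouse has a second beta chain, Csf2rb2, that serves IL-3 alone, and the IL-6 receptor pairs Il6ra with Il6st, also called gp130. Early progenitors carry low levels of many of these receptors before 1 of them comes to dominate in a committed lineage.

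Library totals ranged from 25528540 to 29136012 counts in 3 libraries deposited as counts per transcript (gene-count files, from Asxl2-/- replicates 1 and 3 and control replicate 2) and from 53147729 to 55032075 in 3 libraries deposited as counts per exon (exon-count files, from Asxl2-/- replicate 2 and control replicates 1 and 3). Reads across a splice junction can enter several exons. Levels, given as CPM, are counts scaled to the size of the library after its adjustment by TMM scaling. They therefore differ from counts scaled by the library totals above, and the order of libraries with close values can depend on this step. Those of the receptor genes were therefore compared between the groups within a kind of file, and the kind was a term in the test. Ranges over all libraries of a group, as for Xist, marker genes and lists and ratios, cross the kinds of file and are descriptive. In the exon-count files, exon 11 of Asxl2 (chr12:3496225-3496936, mm10) held 0.583% of Asxl2 counts in Asxl2-/- replicate 2, with a 95% Wilson interval of 0.404 to 0.841%, against 10.3 and 11.99% in control replicates 1 and 3, which matched the labels. The gene-count files cannot show this exon, and the total Asxl2 count does not report it. The groups also differed in sex-linked transcripts. Xist stood between 1071 and 2351 CPM in the Asxl2-/- libraries and between 12.97 and 61.3 CPM in the controls, so that genotype and sex cannot be told apart in any difference below. Control replicate 2 stood apart from the other libraries in myeloid genes, as detailed with Csf1r.

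None of the 10 receptor genes passed the test between the groups (edgeR quasi-likelihood, Benjamini-Hochberg adjusted p under 0.05), whereas 2.34% of the 14145 tested genes did, 288 of them higher (2.04% of those tested) and 43 lower (0.304%) in Asxl2-/- cells. The members split into a pair that was higher in every Asxl2-/- library within each kind of file, Il7r and Csf3r, and 8 whose fold change was negative among gene-count files and positive among exon-count files. The first pattern, without overlap upward, was met by 25.4% of all tested genes, and the pair is 2 of 10. The second, opposite directions in the 2 kinds of file, was met by 31.9% of all tested genes and by 8 of the 10 members. At an unadjusted p under 0.05, Il7r and Csf3r were again the pair, against 27.7% of all tested genes. By DESeq2 the same pair passed, with 16.5% of all tested genes called, and by limma-voom Il7r alone passed, with 3.04% called. In the edgeR fits that left out 1 library, Il7r and Csf2ra passed without Asxl2-/- replicate 2 (4.67% of genes called) and Il7r passed without control replicate 1 (9.33% called). Fold changes in these fits come from comparisons within a kind of file. Without Asxl2-/- replicate 2, only the gene-count files still held both groups, and without control replicate 2, only the exon-count files. The median log2 fold change was -0.05 over the members and 0.000523 over all tested genes, and the members' own median was -0.73 when only gene-count files were used and 0.56 when only exon-count files were.

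**Figure D1:**
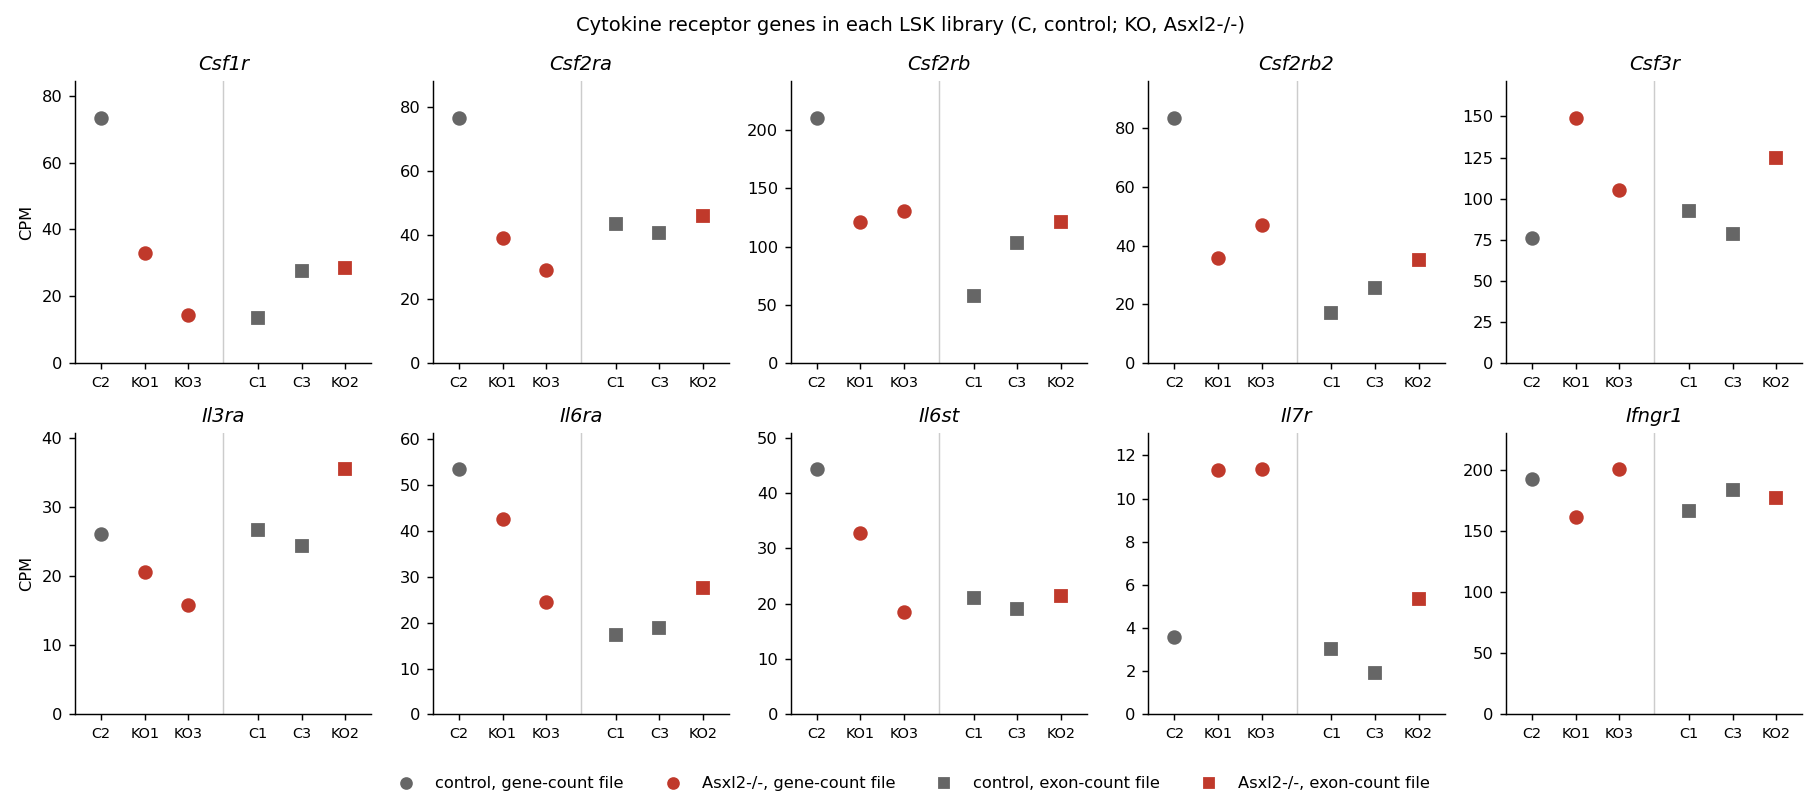
Level of each of the 10 receptor genes in each library, in CPM on axes that start at 0, with gene-count files as circles to the left of the line and exon-count files as squares to its right. Each point is 1 library. Il7r and Csf3r are higher in Asxl2-/- (red) than in control (grey) on both sides of the line, and control replicate 2 (C2) is the highest point for Csf1r, Csf2ra, Csf2rb, Csf2rb2, Il6ra and Il6st.

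Il7r encodes the alpha chain of the receptor for IL-7, the main growth factor of early lymphoid progenitors, and also takes part in the TSLP receptor. The gene lies at chr15:9506159-9529876 (mm10), has 8 exons in the transcript used and is read from the minus strand. Its level was 11.3 and 11.4 CPM in the Asxl2-/- gene-count libraries against 3.58 CPM in control replicate 2. Among the exon-count libraries it was 5.36 CPM in Asxl2-/- replicate 2 against 3.01 and 1.92 CPM in control replicates 1 and 3. All Asxl2-/- libraries were thus above all controls of their kind, on counts of 285 to 322 per Asxl2-/- library and 91 to 157 per control. After removal of the effect of the kind of file, log2 CPM was 3.01 ± 0.15 in Asxl2-/- and 1.60 ± 0.36 in control cells (SD, n = 3 each). The fold was 2.61, a log2 fold change of 1.39 ± 0.26 (SE), with an unadjusted p of 0.00152 and an adjusted p of 0.0528 in edgeR's quasi-likelihood test, just outside the threshold. The direction was the same in all alternatives, with log2 fold changes from 1.115 to 1.72. The adjusted p was 0.000176 by DESeq2 and 0.0448 by limma-voom, and it was 0.186 in the edgeR fit without control replicate 2.

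B-lymphoid genes were higher in the same libraries as Il7r. Of 11 B-lymphoid markers tested, 9 passed the edgeR test, all higher in Asxl2-/- cells, beside 2.04% of all tested genes. The list median was 1.96 on the log2 scale. Among them, Cd79a, a signalling chain of the B-cell receptor, had a log2 fold change of 1.84, and Ebf1, a transcription factor of B-cell commitment, of 2.18. The most abundant marker of the list, Dntt, the enzyme that adds nucleotides to rearranging receptor genes in lymphoid progenitors, stood at 0.18 with an adjusted p of 0.870. The summed level of the list was 261 to 323 CPM over the Asxl2-/- libraries and 86.2 to 188 CPM over the controls, and no marker of the list was at 0 in any library. In these bulk libraries a larger number of Il7r-expressing cells and more Il7r RNA per cell cannot be told apart, and the part of the B-lymphoid genes in the Il7r difference was not tested. The chain that Il7r pairs with, Il2rg (the common gamma chain), had a fold change of the opposite sign that did not pass the test. It measured 87.3 and 73.9 CPM in the Asxl2-/- gene-count libraries against 101 in control replicate 2, and 82.9 CPM in Asxl2-/- replicate 2 against 85.9 and 89.2 in the other controls, a log2 fold change of -0.20 ± 0.10 (SE, adjusted p = 0.260 in edgeR). Per kilobase of transcript, Il2rg exceeded Il7r by 12.97 to 30.8 times in the Asxl2-/- libraries and by 56.2 to 92.5 times in the controls. Il7, the ligand, was near 1 CPM in all libraries, between 0.537 and 1.41 CPM.

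Csf3r encodes the receptor for G-CSF, the cytokine of neutrophil production and stem-cell mobilisation. It lies at chr4:126024659-126044975 (mm10) on the plus strand. Its level was 149 and 105 CPM in the Asxl2-/- gene-count libraries against 75.8 CPM in control replicate 2. Asxl2-/- replicate 2 reached 124 CPM against 92.5 and 78.5 CPM in control replicates 1 and 3, all from exon-count files. Again no control library reached an Asxl2-/- library of its kind. The kind-adjusted means were 6.98 ± 0.26 and 6.34 ± 0.13 log2 CPM (SD, n = 3 each), a 1.56-fold difference with a log2 fold change of 0.64 ± 0.16 (SE), an unadjusted p of 0.00719 and an edgeR adjusted p of 0.0854. The log2 fold change remained between 0.50 and 0.74 in all alternatives. The adjusted p was 0.00696 by DESeq2 and 0.292 in the edgeR fit without control replicate 2.

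Neutrophil markers beside Csf3r were divided, with 7 of 11 fold changes positive and a list median of 1.49. At an unadjusted p under 0.05 in edgeR, 6 were higher and 0 lower, beside 15% and 12.6% of all tested genes. Ltf and Ngp, proteins of the secondary granules of maturing neutrophils, passed the edgeR test with log2 fold changes of 3.52 and 3.62. Ltf was at most 1.18 CPM in the controls and 5.71 to 21.7 CPM in the Asxl2-/- libraries. Mpo, a primary-granule enzyme of early granulocyte-monocyte progenitors and the most abundant marker of the list, stood at -0.21 with an adjusted p of 0.817. In all, 2 of 11 neutrophil markers passed, both higher, beside 2.04% of all tested genes. The summed level of the list overlapped between the groups, from 2457 to 6607 CPM in Asxl2-/- and from 2526 to 7794 CPM in control libraries. The highest of these values, 7794 CPM, was that of control replicate 2. None of the list was at 0 in any library. The part of these cells in the Csf3r difference was not tested.

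The regions directly upstream of the transcription start are given for the pair that did not overlap between the groups, and for Csf2rb2, whose start lies between the genes of both beta chains. They are the 250 bases before the RefSeq start (GRCm38.p6), read 5′ to 3′ on the strand of the gene, for Il7r chr15:9529877-9530126 (minus strand), Csf3r chr4:126024409-126024658 (plus strand) and Csf2rb2 chr15:78305722-78305971 (minus strand). Capitals mark matches on either strand to 3 motifs, GAGGAA for the Ets factor PU.1, TTCNNNGAA for STAT dimers and TGTGGT or TGCGGT for RUNX factors.
Il7r: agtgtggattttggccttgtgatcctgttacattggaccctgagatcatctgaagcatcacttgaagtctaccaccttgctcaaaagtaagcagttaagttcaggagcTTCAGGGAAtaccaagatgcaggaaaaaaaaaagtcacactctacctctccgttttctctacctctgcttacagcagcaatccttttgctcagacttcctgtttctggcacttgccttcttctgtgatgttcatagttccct
Csf3r: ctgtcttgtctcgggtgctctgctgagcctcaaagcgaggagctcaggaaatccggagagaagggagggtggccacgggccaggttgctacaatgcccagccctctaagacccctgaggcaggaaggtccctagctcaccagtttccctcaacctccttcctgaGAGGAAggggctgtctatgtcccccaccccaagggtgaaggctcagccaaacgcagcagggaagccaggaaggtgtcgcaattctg
Csf2rb2: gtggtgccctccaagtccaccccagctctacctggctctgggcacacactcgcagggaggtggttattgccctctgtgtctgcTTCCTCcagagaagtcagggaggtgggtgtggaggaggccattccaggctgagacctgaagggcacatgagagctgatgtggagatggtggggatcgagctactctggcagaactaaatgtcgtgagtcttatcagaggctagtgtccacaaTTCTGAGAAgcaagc
Il7r held 1 STAT match, 142 to 134 bases before the start, Csf3r 1 PU.1 match, 86 to 81 bases before it, and Csf2rb2 1 match of each of these motifs. RefSeq windows were matched for 8 of the 10 members. Over these 8, the PU.1 letters were found in Csf2ra, Csf2rb2, Csf3r and Il6ra, and the STAT letters in Csf2rb2 and Il7r. The RUNX letters were found in none of the 8 windows. Among all 32851 RefSeq promoter windows of this length, 23.3% held the PU.1 letters, 7.02% the STAT letters and 18.6% the RUNX letters. Of the unmarked motifs, the C/EBP letters were found in Il3ra and Il7r (9.56% of all windows) and the GATA letters in Il6ra (9.99%). The interferon response letters were found in none of the 8 (2.98%). A match describes letters in this window and not binding.

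The receptors for GM-CSF and IL-3 did not separate the groups. Csf2ra, the chain that recognises GM-CSF (chr19:61224402-61228418, mm10), measured 39.1 and 29.0 CPM in the Asxl2-/- gene-count libraries against 76.6 CPM in control replicate 2. In the exon-count files it was 46.0 CPM in Asxl2-/- replicate 2 against 43.5 and 40.8 CPM in the controls. Control replicate 2 was the highest of the 6 libraries, and the remaining 5 lay between 29.0 and 46.0 CPM. The log2 fold change was -0.52 ± 0.28 (SE, adjusted p = 0.279 in edgeR). It was 0.13 without control replicate 2. Without Asxl2-/- replicate 2, the fit passed the threshold at -1.17 (adjusted p = 0.0297). The exon-count controls then had no Asxl2-/- library of their kind. This fold change therefore rested on the Asxl2-/- gene-count libraries against control replicate 2 alone.

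Il3ra, the IL-3-specific chain (chr14:14346495-14355490, mm10), showed the groups crossing over between the 2 kinds of file. It was 20.6 and 15.9 CPM in the Asxl2-/- gene-count libraries against 26.1 CPM in control replicate 2, and 35.5 CPM in Asxl2-/- replicate 2 against 26.7 and 24.3 CPM in the other controls. The log2 fold change over all libraries was -0.01 ± 0.23 (SE, adjusted p = 0.981 in edgeR). The Asxl2-/- libraries were below the control in the first and above both controls in the second.

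Csf2rb (chr15:78325990-78351001, mm10), the shared beta chain, was at 122 and 131 CPM in the Asxl2-/- gene-count libraries against 211 CPM in control replicate 2. Among the exon-count libraries it was 121 CPM in Asxl2-/- replicate 2 against 57.4 and 103 CPM in control replicates 1 and 3. The Asxl2-/- libraries thus lay below the control in 1 kind of file and above both controls in the other. The log2 fold change was -0.07 ± 0.33 (SE, adjusted p = 0.915 in edgeR). Csf2rb2 (chr15:78282508-78305721, mm10) showed the same order at a lower level. It was 35.8 and 47.0 CPM against 83.5 CPM in the gene-count files and 35.0 CPM against 17.1 and 25.5 CPM in the exon-count files, a log2 fold change of -0.15 ± 0.38 (SE, adjusted p = 0.830 in edgeR).

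The 2 beta chains are neighbouring copies of similar sequence, which bears on how far their counts are separate. Over 2631 aligned coding bases of the GENCODE transcripts, 95.2% were identical, and the longest identical run was 242 bases. Of all windows of 100 bases, 6.56% of those of Csf2rb occurred unchanged in Csf2rb2. A pair of aligned stretches of 120 coding bases shows what a read has to tell the genes apart, with differing bases in capitals. The first begins inside the longest identical run, at coding base 2265 of both, and holds 2 differences.
Csf2rb: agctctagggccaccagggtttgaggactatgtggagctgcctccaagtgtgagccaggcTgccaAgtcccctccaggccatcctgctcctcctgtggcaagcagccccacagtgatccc
Csf2rb2: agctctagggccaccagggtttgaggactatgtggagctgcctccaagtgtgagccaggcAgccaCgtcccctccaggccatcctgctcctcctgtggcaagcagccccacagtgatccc
The second is the least alike stretch of this length, from coding base 309 of Csf2rb and 312 of Csf2rb2, and holds 22 differences.
Csf2rb: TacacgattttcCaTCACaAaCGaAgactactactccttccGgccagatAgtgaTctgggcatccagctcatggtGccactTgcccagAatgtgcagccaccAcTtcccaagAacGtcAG
Csf2rb2: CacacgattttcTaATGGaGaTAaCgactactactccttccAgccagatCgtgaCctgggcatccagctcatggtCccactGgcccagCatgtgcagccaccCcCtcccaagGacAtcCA
Reads from stretches like the first can be dropped or counted for the wrong copy, so the level of each beta chain is uncertain to that extent. With the counts of both added together as 1 feature, chosen after the data were seen, the log2 fold change was -0.09 with an adjusted p of 0.887 (edgeR). A microRNA annotated at both genes, as Mir7676-1 and Mir7676-2, overlaps 62 bases of the exons of each.

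Within the GM-CSF and IL-3 receptors, the ratio of the beta chain to each alpha chain was compared per kilobase of transcript. Csf2rb over Csf2ra was 1.20 and 1.75 in the Asxl2-/- gene-count libraries against 1.07 in control replicate 2, and 1.02 in Asxl2-/- replicate 2 against 0.512 and 0.981 in the other controls. This ratio did not overlap between the groups within either kind of file, by a small margin against control replicate 3. Among single genes, 25.4% lay above and 23.3% below the controls in this way. Csf2rb over Il3ra overlapped, at 1.72 and 2.41 against 2.37 in the gene-count files and 1.00 against 0.629 and 1.24 in the exon-count files. Csf2rb exceeded Csf2rb2 by 2.51 to 4.02 times over all 6 libraries. These ratios were not tested.

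Csf1r encodes the tyrosine kinase receptor for M-CSF and IL-34 and marks monocytes, macrophages and their progenitors. It lies on chromosome 18 and measured 33.0 and 14.3 CPM in the Asxl2-/- gene-count libraries against 73.4 CPM in control replicate 2. In the exon-count files it was 28.5 CPM in Asxl2-/- replicate 2 against 13.3 and 27.5 CPM in control replicates 1 and 3. It was the most variable member within the groups, with SDs of 0.90 in Asxl2-/- and 0.85 in control on the log2 CPM scale (n = 3 each). The log2 fold change was -0.57 ± 0.56 (SE, adjusted p = 0.532 in edgeR), and it turned to 0.49 without control replicate 2.

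Monocyte and dendritic-cell genes were highest in control replicate 2. The summed level of 11 monocyte and macrophage markers was 1422 CPM in that library. It was 287 and 373 CPM in the other controls and 333 to 528 CPM in the Asxl2-/- libraries. Of the 11, 8 were highest in control replicate 2, beside 19.2% of all tested genes. The summed level of 7 dendritic-cell markers was 757 CPM in it, 202 and 236 CPM in the other controls and 142 to 184 CPM in the Asxl2-/- libraries. Mpeg1, a pore-forming protein of macrophages and the most abundant monocyte marker, was at 789 CPM in control replicate 2 and at most 142 CPM elsewhere. Irf8, a transcription factor of monocyte and dendritic-cell fate, was at 523 CPM in it and at most 168 CPM elsewhere. No monocyte or macrophage marker was at 0 in any library, and Cd209a was at 0 in at least 1 library among the dendritic-cell markers. None of the markers of these lists passed the edgeR test. Of the 11 monocyte and macrophage markers, 8 had negative fold changes, with a list median of -0.40. At an unadjusted p under 0.05, 3 were lower and 1 higher in Asxl2-/- cells, beside 12.6% and 15% of all tested genes. The higher marker, Itgam, had the smallest p of the list, with a log2 fold change of 1.01 (adjusted p = 0.0528). Of the 7 dendritic-cell markers, 6 were lower at an unadjusted p under 0.05, beside 12.6% of all tested genes. Of the same 7, 5 lay below the controls within both kinds of file, beside 23.3% of all tested genes, with a list median of -1.27. The part of such cells in the receptor levels was not tested. The remaining lists covered other lineages. Of 7 megakaryocyte markers tested, Pf4, Gp5, Vwf and Ppbp passed, all higher, beside 2.04% of all tested genes. Of 7 erythroid markers none passed, and all 7 had negative fold changes, with 6 below the controls within both kinds of file (23.3% of all tested genes were). None of the tested T and NK or mast cell and basophil markers passed. Of 9 genes of the LSK gate and of stem cells, Slamf1 passed with a log2 fold change of 1.52, Kit stood at 0.23 (adjusted p = 0.453) and Ly6a, which encodes Sca-1, at -1.34 (adjusted p = 0.187).

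**Figure D2:**
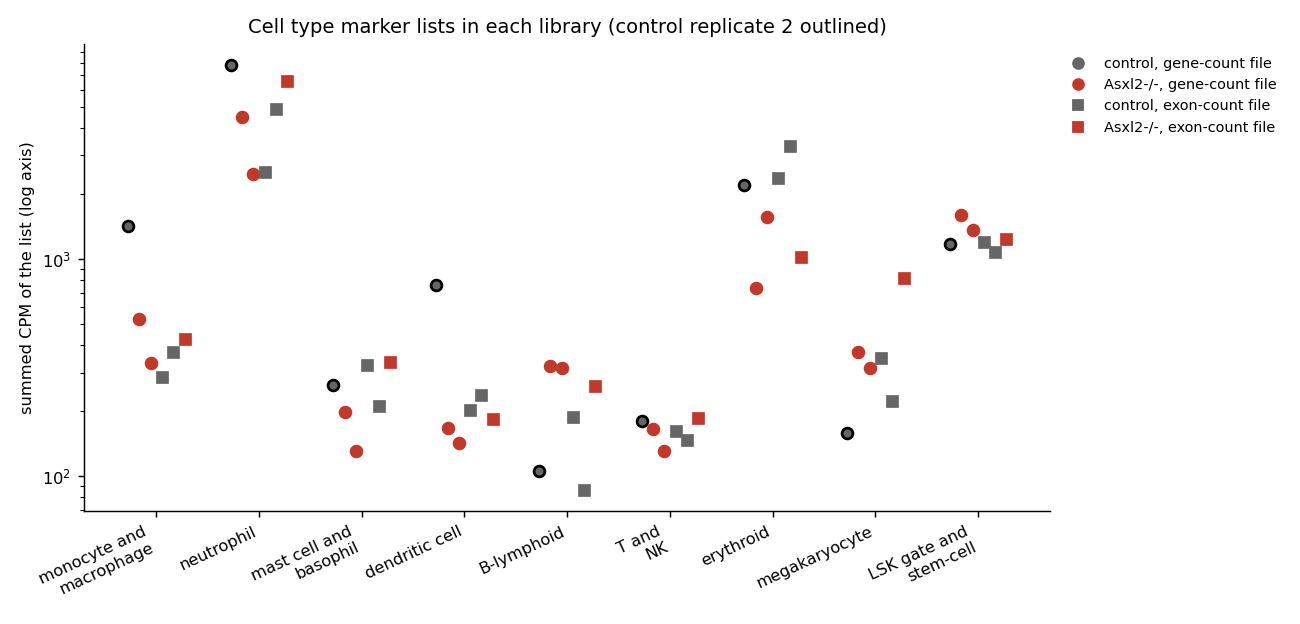
Summed CPM of each cell type marker list in each library, on a log axis, with 1 point per library and control replicate 2 outlined in black. Control replicate 2 is the highest library for the monocyte and macrophage (1422 CPM), dendritic-cell (757 CPM) and neutrophil (7794 CPM) lists. Asxl2-/- libraries lie above all controls for the B-lymphoid and the LSK and stem-cell lists, and below all controls for the erythroid list.

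Il6ra binds IL-6 and Il6st carries the signal inward for this and related cytokines. Il6ra (chr3:89869324-89913162, mm10) was 42.4 and 24.5 CPM in the Asxl2-/- gene-count libraries against 53.4 CPM in control replicate 2, and 27.5 CPM in Asxl2-/- replicate 2 against 17.4 and 18.8 CPM in the other controls. Its log2 fold change was -0.04 ± 0.32 (SE, adjusted p = 0.958 in edgeR) and 0.61 without control replicate 2. Il6st (chr13:112464070-112506860, mm10) was 32.7 and 18.6 CPM against 44.3 CPM in the gene-count files, and 21.4 CPM against 21.0 and 19.0 CPM in the exon-count files. Its log2 fold change was -0.34 ± 0.28 (SE, adjusted p = 0.446 in edgeR) and 0.10 without control replicate 2. The ratio of the signalling chain to the binding chain, per kilobase of transcript, was nearly the same in the 3 Asxl2-/- libraries, at 0.473, 0.477 and 0.466, and higher in each control, at 0.740, 0.509 and 0.619 in control replicates 1, 2 and 3. The ratio did not overlap between the groups within either kind of file, and it was not tested. Among single genes, 25.4% lay above and 23.3% below the controls in this way. No such share was computed for ratios.

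Ifngr1, the ligand-binding chain of the interferon-gamma receptor (chr10:19591958-19610225, mm10), was the steadiest member. It was 162 and 201 CPM in the Asxl2-/- gene-count libraries against 193 CPM in control replicate 2, and 178 CPM in Asxl2-/- replicate 2 against 167 and 184 CPM in the other controls. Each Asxl2-/- set spanned or lay inside the values of its controls. The log2 fold change was -0.04 ± 0.11 (SE, adjusted p = 0.866 in edgeR). Ifngr2, the signalling chain, was lower per kilobase by 5.15 to 9.42 times and had a log2 fold change of -0.20 ± 0.20 (SE, adjusted p = 0.533 in edgeR).

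The direction of 8 members depended on the kind of file and on the library left out. For Csf2rb, Il3ra, Il6ra and Ifngr1, whose fold changes were small, it also changed with all 6 libraries kept, under scaling by library size only. In the gene-count files, the only control was replicate 2, and it was above both Asxl2-/- libraries for 7 of the 10 members, as it was for 42.2% of all tested genes. In the exon-count files, the only Asxl2-/- library was replicate 2, and it was above both controls for 9 of the 10 members, against 39.5% of all tested genes. Over all 6 libraries, control replicate 2 had the highest CPM for 6 of 10 members and for 19.2% of all tested genes. Without control replicate 2, the log2 fold changes of the other members were 0.61 for Csf2rb, 0.72 for Csf2rb2, 0.48 for Il3ra and 0.02 for Ifngr1, so that all 10 then pointed upward, and none passed the edgeR test (0.834% of all genes tested in that fit did). That fit has no control of the gene-count kind. Its fold changes therefore rest on Asxl2-/- replicate 2 against the exon-count controls, and it is no separate check on the exon-count files alone.

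**Figure D3:**
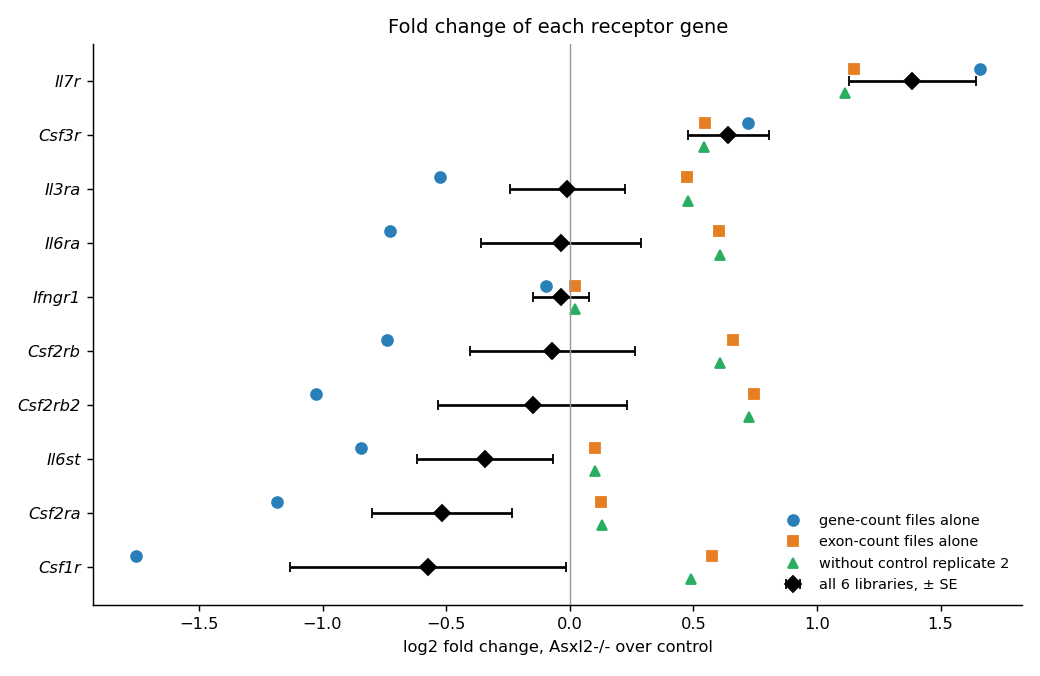
Log2 fold change of Asxl2-/- over control for each receptor gene. Black diamonds are the fit to all 6 libraries with SE bars, blue circles and orange squares the gene-count and exon-count files alone, and green triangles the fit without control replicate 2. That fit compares the groups only within the exon-count files, as the orange squares do. All 4 marks lie to the right of 0 for Il7r and Csf3r, and for the other members the blue circle lies left of 0 and the green triangle right of it.

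Per kilobase of transcript, Ifngr1 had the highest level of the 10 in every library, between 77.2 and 95.6 CPM per kilobase, and no other member exceeded 44.2 in any library. Csf2rb, Csf3r, Csf2ra and Il3ra formed a middle group whose order differed from library to library. Their values lay between 11.4 and 44.2 CPM per kilobase and overlapped one another. Among all 10 members, Csf3r held rank 2 or 3 in the Asxl2-/- libraries and rank 3 or 4 in the controls. Il6ra, Csf2rb2 and Csf1r followed, with Csf1r between 3.44 and 18.9 CPM per kilobase. Il6st lay between 3.41 and 8.12 and Il7r between 0.598 and 3.54, and Il7r was the lowest in 5 of 6 libraries and second lowest, above Il6st, in Asxl2-/- replicate 3.

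**Figure D4:**
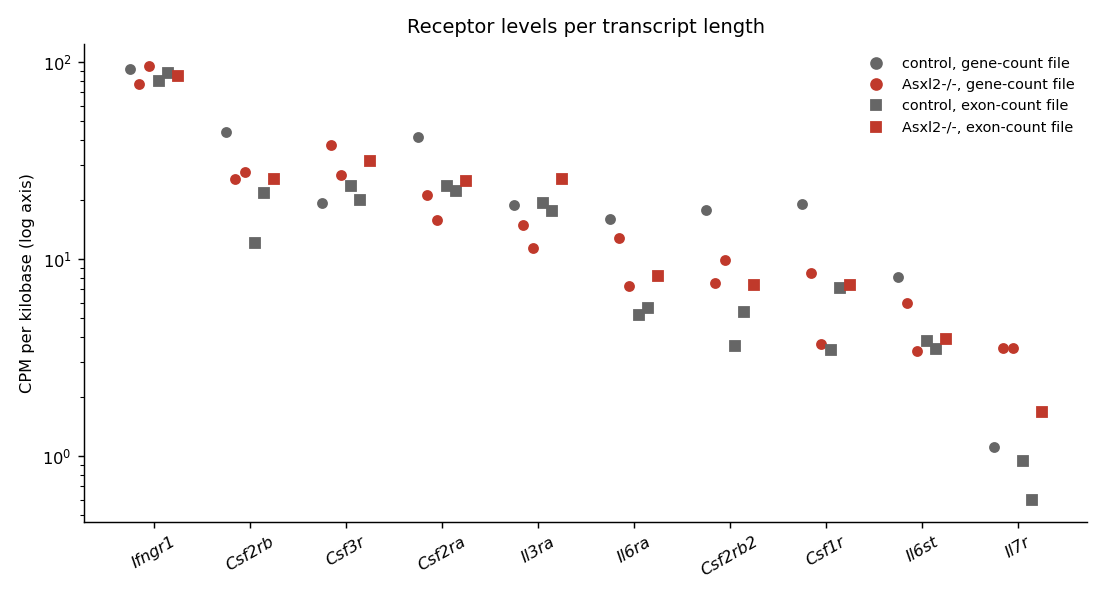
Level of each receptor gene in CPM per kilobase of transcript, on a log axis, with 1 point per library (circles, gene-count files; squares, exon-count files). Ifngr1 lies at 77.2 to 95.6 in all 6 libraries, the middle group overlaps, and Il7r lies lowest with Asxl2-/- libraries (red) above the controls (grey).

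Exon use of the receptors could be followed in the exon-count files, with 1 Asxl2-/- and 2 control libraries and no replicate of the former. For each member, the share of the gene's counts in each exon was set against the range of the 2 controls. The largest gap was 2.53 percentage points, in Il6ra, whose last exon held 48.2% of counts in Asxl2-/- replicate 2 and 45.6% in both controls. The next was 2.38 points, in exon 3 of Il7r, on 285 counts. Il7r had most of its counts in its long last exon, at 51.6% in Asxl2-/- replicate 2 against 56.1 and 52.7% in the controls. For Csf1r, the first listed exon (113 bases) had 0 of 1517, 695 and 1303 counts in Asxl2-/- replicate 2 and control replicates 1 and 3, which allows shares of up to 0.198, 0.432 and 0.230%. The second exon, which lies close behind it, held 2.11, 3.17 and 2.76%. For Csf3r, the transcript used here, the longest, is a non-coding RefSeq record. An exon of 99 bases present in the Csf3r transcript with the most counts but not in the one used here held 2.20, 1.94 and 1.98% of counts of that transcript. With the transcript with the most counts for each gene, the log2 fold change of Csf3r was 0.64 (adjusted p = 0.0835 in edgeR).

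Among the 29 other cytokine receptors reported here, none passed in edgeR, against 5 by DESeq2, which called 16.5% of all tested genes. The smallest p belonged to Il27ra, a chain of the IL-27 receptor. It was 37.6 and 31.9 CPM in the Asxl2-/- gene-count libraries against 16.3 CPM in control replicate 2, and 39.4 CPM in Asxl2-/- replicate 2 against 30.2 and 20.7 CPM in the other controls, without overlap and with a log2 fold change of 0.86 ± 0.20 (SE, adjusted p = 0.0761 in edgeR). Il1rl1, the IL-33 receptor, lay below all controls of its kind of file, at 20.8 and 37.3 CPM against 52.0 CPM and at 22.4 CPM against 49.7 and 55.3 CPM, a log2 fold change of -1.03 ± 0.24 (SE, adjusted p = 0.0761 in edgeR). Il18r1, a chain of the IL-18 receptor, stood at -1.32 ± 0.37 (SE, adjusted p = 0.101 in edgeR). Epor, the erythropoietin receptor, was also below the controls without overlap, at 30.7 and 50.7 CPM against 60.7 CPM and at 38.9 CPM against 75.8 and 99.1 CPM, with a log2 fold change of -0.87 ± 0.25 (SE, adjusted p = 0.105 in edgeR). Of all tested genes, 23.3% lay below the controls within both kinds of file. Kit, the stem cell factor receptor of the sorting gate, and Flt3, a receptor of lymphoid-primed progenitors, had log2 fold changes of 0.23 ± 0.18 (adjusted p = 0.453) and -0.34 ± 0.34 (adjusted p = 0.540) in the same fit. The list median was -0.03.

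None of the downstream genes passed either in edgeR, whereas 2 JAK and STAT genes, 4 adaptors, 5 inhibitors and 4 STAT targets did by DESeq2, beside the 16.5% of all tested genes that it called. Among 11 JAK kinases and STAT factors, Stat2, which acts in interferon signalling, had the smallest p, at -0.66 (edgeR adjusted p = 0.0974), followed by Stat4 at 0.86 and Tyk2 at -0.34. Stat5a and Stat5b, the main STATs of IL-3, GM-CSF and IL-7 signalling, stood at -0.06 and 0.08. Among 17 adaptors and receptor-proximal kinases, the smallest p belonged to Plcg1 at 0.72 (adjusted p = 0.0732), Syk at 0.51 and Dok2 at 1.09. Among 22 inhibitors, Cbl, the ubiquitin ligase, stood at 0.47 (adjusted p = 0.0583), Cish at 0.88 and Socs2 at 1.31, and 6 of the 22, these 3 among them, were higher in every Asxl2-/- library within its kind of file, as were 25.4% of all tested genes. Among 18 STAT target genes, Bcl2l1, an anti-apoptotic gene, stood at 0.78 (adjusted p = 0.0552), Cd274 at 0.56 and the kinase gene Pim1 at 0.35. Of 14 genes for ligands of the receptors, 8 passed the filter on low counts, and Tslp, Il6 and Il7 had the smallest p, at 0.60, -1.0 and 0.53 with adjusted p of 0.171, 0.241 and 0.372. At an unadjusted p under 0.05, the numbers higher and lower were 4 and 3 of the 29 other receptors, 1 and 2 of the JAK and STAT genes, 3 and 1 of the adaptors, 4 and 1 of the inhibitors, 4 and 3 of the targets and 1 and 0 of the ligands, beside 15.0% and 12.6% of all tested genes.

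**Figure D5:**
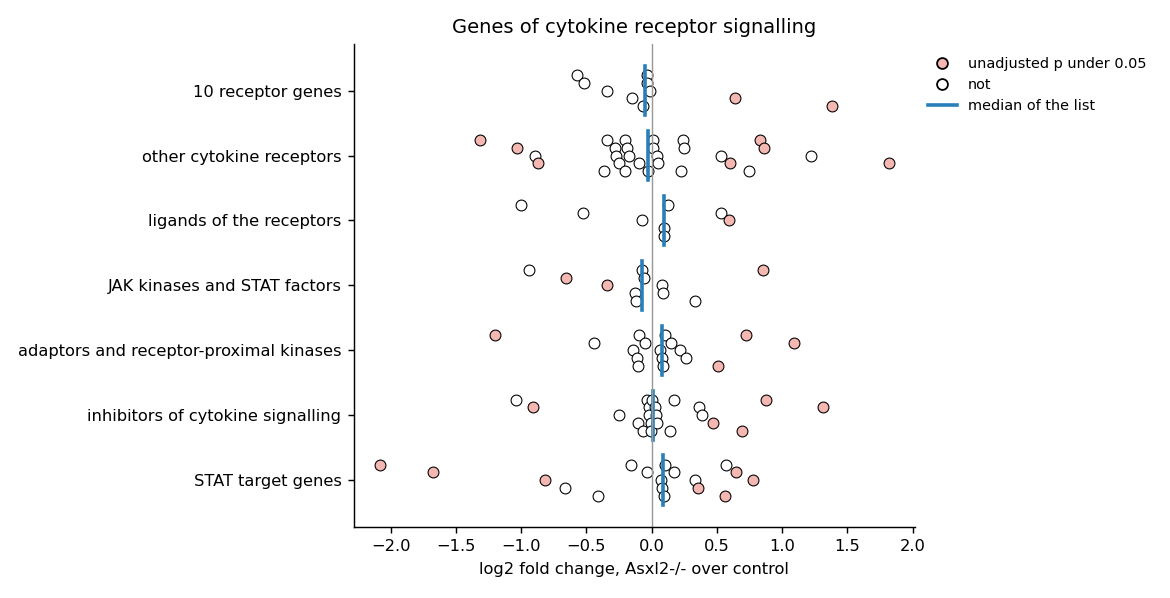
Log2 fold change of Asxl2-/- over control for the 10 receptor genes and for 6 lists of other genes of cytokine signalling. Each point is a gene (pale red, unadjusted p under 0.05; white, not), and blue bars are list medians. No plotted gene has an adjusted p under 0.05, and the list medians lie between -0.07 and 0.09.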

How the data were processed

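RNA from sorted LSK cells of 3 Asxl2-/- and 3 control mice was sequenced from poly(A)-selected, unstranded libraries. The deposited values were raw counts that the authors made per RefSeq transcript or per exon on mm10. The submitters' processing notes name STAR, featureCounts and DESeq2, without versions. Groups came from the labels. Each symbol was represented by its longest transcript, and exon counts were summed over that transcript. Counts were tested with edgeR 4.0.16 (R 4.3.3; TMM scaling, filterByExpr, quasi-likelihood, two-sided) in a model of kind of file plus group with 3 residual degrees of freedom. P-values were adjusted by the Benjamini-Hochberg method over all 14145 tested genes, threshold 0.05. Because junction reads can be counted more than once in exon sums, the kind of file was a term in the model. SE came from the fold change and F statistic. DESeq2 1.42.0, limma-voom (limma 3.58.1), other scalings, filters and transcript choices, and leaving out each library were alternatives. The procedure was tested on simulated counts. Exon shares have Wilson 95% intervals (scipy 1.17.1), a count of 0 was given a limit of 3 counts, and both cover counting error only. Coding sequences were aligned with Biopython 1.88. The members and lists were chosen with earlier results of these data known. Named were the 10 members, Kit, Flt3 and Epor, each pathway gene past the threshold or otherwise the 3 of smallest p per list, Asxl2, and examples of marker lists. Genes with a pattern like that of a member were to be named only for members past the threshold, so none is. A further gene of the receptor list is not reported here. Il2rg, Ifngr2, Stat5a, Stat5b, Ly6a and Xist were added after their values were seen. The study took 3 biological replicates per group, with sources otherwise not given in the labels, and p-values measure the spread between these libraries.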

Additional observations from a re-analysis of the deposited data

How the results depend on the processing

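Library number and the uneven spread of the 2 kinds of file limited these comparisons, and Il7r rested on 91 to 322 counts per library. Members past the threshold numbered 0 with all libraries, 2 by DESeq2, 1 by limma-voom and 0 to 2 when a library was left out (Csf2ra and Il7r without Asxl2-/- replicate 2, Il7r without control replicate 1). All genes past the threshold numbered 331, 2329 by DESeq2, 161 with scaling by library size only and 9 to 1312 when a library was left out (9 without control replicate 3, 16 without Asxl2-/- replicate 1, 96 without Asxl2-/- replicate 3, 124 without control replicate 2, 659 without Asxl2-/- replicate 2, 1312 without control replicate 1). The causes were not tested.

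By DESeq2, 5 other receptors, 2 JAK and STAT genes, 4 adaptors, 5 inhibitors and 4 STAT targets passed, beside 16.5% of all tested genes. When only the longest exon was used, 1 other receptor passed (Il27ra), against 0 with all exons. Leaving out a library gave 0 to 1 other receptors (Il1rl1 without Asxl2-/- replicate 3, Il27ra without control replicate 1), 0 to 2 JAK and STAT genes, 0 to 3 adaptors, 0 to 4 inhibitors and 0 to 2 STAT targets. Whether the replicate numbers pair the samples could not be decided. Deviations from the group means correlated at 0.31, 0.046 and 0.0083 for numbers 1, 2 and 3. Asxl2-/- replicates 2 and 3 correlated better with another number than with their own. However, each number joins a gene-count and an exon-count library, and the effect of the kind of file was not removed from these correlations. With a replicate block and the kind of file, which leaves 1 residual degree of freedom, 5179 genes passed (36.6% of those tested), with 5 members (Csf1r, Csf2ra, Csf3r, Il6st and Il7r), 13 other receptors, 5 JAK and STAT genes, 6 adaptors, 7 inhibitors and 11 STAT targets. With the replicate block without the kind of file, 380 genes, 0 members, 1 inhibitor and 1 STAT target passed.

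Il7r and Csf3r kept their direction in all 20 alternatives, some of which rest on the same libraries. With scaling by library size only, the log2 fold change of Csf2rb was 0.037, of Il3ra 0.085, of Il6ra 0.066 and of Ifngr1 0.063. Without the term for the kind of file, Csf2rb was 0.011 and Il6ra 0.080. With the replicate block alone, Csf2rb was 0.21, Csf2rb2 0.26 and Il6ra 0.24, and by limma-voom Il3ra was 0.11. In the exon-count files alone, Csf1r was 0.57, Csf2ra 0.13, Csf2rb 0.66, Csf2rb2 0.74, Il3ra 0.48, Il6ra 0.60, Il6st 0.10, Ifngr1 0.019 and Kit -0.13, and in the gene-count files alone Il7 was -0.049. When 1 library was left out, the range was -1.64 to 0.49 for Csf1r, -1.17 to 0.13 for Csf2ra, -0.74 to 0.61 for Csf2rb, -1.01 to 0.72 for Csf2rb2, -0.51 to 0.48 for Il3ra, -0.67 to 0.61 for Il6ra, -0.79 to 0.10 for Il6st, -0.13 to 0.026 for Ifngr1, -0.13 to 0.59 for Kit and -0.048 to 1.10 for Il7. From Csf1r to Il6st, each upper end came without control replicate 2 and each lower end without Asxl2-/- replicate 2. The former fit compares the groups only within the exon-count files and the latter only within the gene-count files.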
